A study of Mus musculus with 6 samples.

Results

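The 30 genes described here encode enzymes of cholesterol synthesis, regulators of that pathway, and proteins that move, store or export cholesterol. They were chosen by gene symbol, and all 30 were found among the 22239 genes of the deposited table. Of these, 18 belong to synthesis, 4 to regulation, and 8 to uptake, storage and export, called transport here. The samples are bulk RNA of 3 sorted populations of lung epithelial cells, with 2 samples in each, from mice aged 8 weeks. Bronchioalveolar stem cells (BASC) were sorted as CCSP-mCherry positive and SPC-YFP positive. The mCherry reporter follows Scgb1a1, a gene of Club cells, and the YFP reporter follows Sftpc, a surfactant protein gene; both are endogenous reporters. Alveolar type 2 (AT2) cells, the surfactant producers of the alveolus, were sorted as SPC-YFP positive. Club cells, which line the bronchioles and secrete CCSP, were sorted as CCSP-mCherry positive. All 3 came from lung homogenates depleted of cells bearing CD31 or CD45. The labels give neither strain nor sex and do not say whether samples were pooled or taken from different mice. The p-values therefore describe only the spread between these libraries, which may be technical.

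Cells build cholesterol from acetyl-CoA by way of mevalonate, squalene and lanosterol. When sterol in the endoplasmic reticulum is low, SCAP escorts the transcription factor precursor SREBP-2 (gene Srebf2) to the Golgi, where proteases release its active part, and INSIG proteins hold SCAP back when sterol is plentiful. The released factor binds sterol regulatory elements in promoters of the pathway, often beside NF-Y, which binds the CCAAT box. In the alveolus, AT2 cells pack cholesterol with phospholipid into lamellar bodies, the storage organelles of surfactant.

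RefSeq promoters (GRCm38.p6, 250 bases before to 50 after the start) were matched by symbol for 23 of the 30 genes. Of the 15 synthesis genes among them, 14 held the letters CCAAT on either strand in at least 1 promoter. The same letters stood in 20 of all 23 genes (87.0%), against 42.4% of 10399 protein coding genes tested here and 41.1% of all 27025 genes with a promoter in the RefSeq table. The sterol regulatory element letters TCACNCCAC, searched on both strands, stood in 1 of the 23 genes, Hmgcs1, against 1.46% of the protein coding genes tested. The GC box letters GGGCGG, on either strand, stood in 95.7% of the 23 genes against 67.5% of the protein coding genes tested, and the E box letters CACGTG in 26.1% against 11.6%. Counted per promoter, CCAAT stood in 20 of 29 promoters of these genes (69.0%), against 37.1% of the promoters of protein coding genes tested. These are matches of letters, not binding sites. The 250 bases before the start are shown for 3 synthesis genes and for the transport gene Npc2, whose RNA was higher in BASC and AT2 than in Club cells. Other genes met this too, so those shown are not a fair sample of the CCAAT matches. Over the whole promoter, Hmgcs1, Msmo1, Nsdhl and Npc2 held 4, 3, 4 and 2 matches. Acat2 held 0, Lss and Cyp51 1 each, and Hsd17b7 3. Capitals mark CCAAT, its reverse complement ATTGG, and the sterol regulatory element letters of Hmgcs1. The stretches are chr13:119690101-119690350, plus strand for Hmgcs1, chr8:64733579-64733828, minus strand for Msmo1, chrX:72918271-72918520, plus strand for Nsdhl and chr12:84773113-84773362, minus strand for Npc2, each read 5′ to 3′.
Hmgcs1: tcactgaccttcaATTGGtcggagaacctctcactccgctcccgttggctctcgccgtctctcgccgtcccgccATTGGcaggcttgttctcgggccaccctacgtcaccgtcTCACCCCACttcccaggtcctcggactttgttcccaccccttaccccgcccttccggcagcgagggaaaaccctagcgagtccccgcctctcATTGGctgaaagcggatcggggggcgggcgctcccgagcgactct
Msmo1: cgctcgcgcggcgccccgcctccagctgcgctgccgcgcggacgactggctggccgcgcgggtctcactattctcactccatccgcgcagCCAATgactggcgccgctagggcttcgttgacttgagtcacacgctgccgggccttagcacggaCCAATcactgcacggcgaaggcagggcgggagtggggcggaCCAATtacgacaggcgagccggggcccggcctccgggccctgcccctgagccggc
Nsdhl: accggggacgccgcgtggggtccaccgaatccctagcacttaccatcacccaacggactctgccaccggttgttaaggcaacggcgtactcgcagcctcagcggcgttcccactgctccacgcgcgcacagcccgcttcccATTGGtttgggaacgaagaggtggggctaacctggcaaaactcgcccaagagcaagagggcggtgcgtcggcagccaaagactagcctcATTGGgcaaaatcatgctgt
Npc2: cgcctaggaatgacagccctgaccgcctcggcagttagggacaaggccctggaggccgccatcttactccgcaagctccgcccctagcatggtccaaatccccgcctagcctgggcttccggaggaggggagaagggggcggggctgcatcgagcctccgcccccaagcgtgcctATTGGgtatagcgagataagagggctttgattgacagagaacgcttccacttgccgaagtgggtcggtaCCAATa

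The table gives normalised counts, and the reads behind it were estimated at 10121884 and 14716169 in BASC libraries, 18203252 and 13172351 in AT2 libraries, and 15437848 and 12723154 in Club libraries. The limit that a count of 0 allows, 3 reads, came to between 2.29 and 4.02 normalised counts per library, for counting error only. The sort reporters matched the labels: Sftpc had 290809 and 307458 in BASC libraries, 301267 and 373742 in AT2 libraries, and 240 and 224 in Club libraries, while Scgb1a1 had 43993 and 58791, then 413 and 302, then 751642 and 760675 in the same order. The sum of 9 AT2 markers lay between 971738 and 982096 in BASC, between 1053257 and 1146152 in AT2, and between 77953 and 96275 in Club cells, so it moved with most of the genes below. Of 12 macrophage and other leukocyte markers, 6 were in the table. Their sum followed Lyz2, which mouse AT2 cells also express, and the other 5 summed to 616 and 849 in BASC libraries, 571 and 853 in AT2 libraries, and 1200 and 1256 in Club libraries. Ciliated cell markers summed to 2918 and 2961 in BASC libraries, 2410 and 2762 in AT2 libraries, and 8258 and 8272 in Club libraries. Alveolar type 1 markers summed to 17765 and 17338, then 17533 and 20728, then 4616 and 4759 in the same order. Like the AT2 markers, this sum moved with most of the genes below. Of these 6 markers, 4 had positive and 2 negative fitted differences in BASC against Club cells. Endothelial markers, 5 of 8 in the table, summed to 764 and 615 in BASC libraries, 76 and 82 in AT2 libraries, and 5584 and 5946 in Club libraries, of which Kdr gave 689 and 517, then 1 and 0, then 5510 and 5892. The endothelial marker Pecam1, which encodes CD31, had 9 and 15 in BASC libraries, 27 and 7 in AT2 libraries, and 3 and 6 in Club libraries. Club cell markers summed to 112322 and 134296 in BASC libraries, 25108 and 27306 in AT2 libraries, and 1105583 and 1131852 in Club libraries. Mesenchyme markers, 6 of 8 in the table, summed to 892 and 722, then 1250 and 1015, then 338 and 265 in the same order, mostly from Plin2. In AT2 replicate 1, Col3a1, Pdgfra, Dcn and Col1a2 had 99, 37, 34 and 26, against 0 each in AT2 replicate 2. The part of these lists in the differences was not tested. In bulk samples, fewer cells of a type and less RNA per cell cannot be told apart.

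Genes of synthesis, regulation and transport were among those higher in BASC and in AT2 than in Club cells, and the largest called differences of BASC were in Npc1, Pmvk and Stard4. Against Club cells, BASC had 15 of the 29 tested cholesterol genes higher and 0 lower, where the shares among all 17721 genes tested were 5.77% higher, 5.42% lower and 11.2% in either direction (limma, Benjamini-Hochberg adjusted p under 0.05). At an unadjusted p under 0.05, limma found 22 higher and 1 lower, against 11.3% and 13.3% of all genes. The 1 lower was Lipa, which had 0 in both BASC libraries and passed the filter on low values through its Club libraries and 1 AT2 library. In AT2 against Club cells, 22 of 29 were higher and 0 lower, where the shares among all genes were 8.42% higher, 9.71% lower and 18.1% in either direction. At an unadjusted p under 0.05 these counts were 25 and 0, against 13.9% and 16.6% of all genes. The 25 include Fdps, which passed the filter on low values only through its AT2 libraries, where it is high. Both comparisons share the Club libraries, so their counts are not independent. Between BASC and AT2, limma called 0 higher and 0 lower, where the shares among all genes were 0.553% higher, 0.0790% lower and 0.632% in either direction, and at an unadjusted p under 0.05 it found 0 higher and 3 lower (Pmvk, Srebf2 and Scap), against 7.09% and 6.09% of all genes. Both BASC libraries lay above both Club libraries for 24 of the 29 genes and below them for 2, against 23.9% and 30.1% of all genes tested. Both AT2 libraries lay above both Club libraries for 26 genes and below them for 3, against 26.0% and 32.0%. Both BASC libraries lay above both AT2 libraries for 1 gene and below them for 9, with 19 overlapping, against 18.3% and 18.9%. These counts include Fdps in both comparisons with AT2 and Lipa in both with Club cells. Each passed the filter mainly through the group where it is high, so neither is read as a result. The counts of calls against Club cells fell when single libraries were left out. In BASC the count was 5 without BASC replicate 1, 9 without BASC replicate 2 and 8 without Club replicate 2, and of the 15 genes 5, 6 and 7 kept their call in these fits. In AT2 the count was 7 without AT2 replicate 1 and 14 without Club replicate 2. Of 17 alternatives, Msmo1 lost its call in BASC against Club cells in 10, Cyp51 and Lss in 7 each, and the other called genes in 5 or fewer. With variances moderated without a trend on the mean, 3 genes (Pmvk, Npc1 and Soat1) stayed called in BASC and 6 in AT2 against Club cells.

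**Figure D1:**
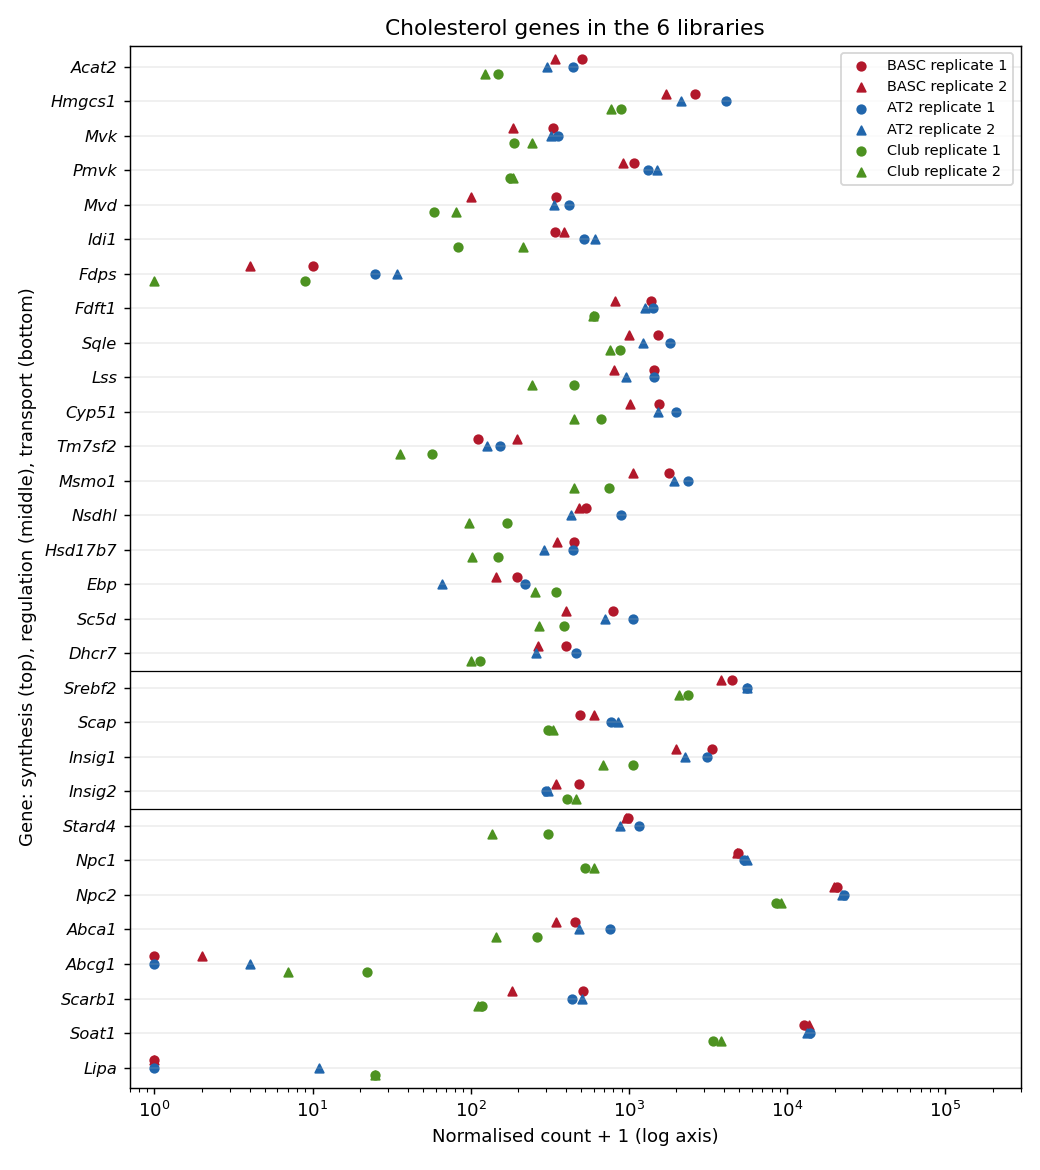
Normalised count plus 1 (log axis) of the 30 genes in each of the 6 libraries, with colour for the population and marker shape for the replicate, and genes in pathway order from top to bottom. For most genes BASC and AT2 points lie together and right of the Club points, as for Npc1 at 4886 and 4865 in BASC libraries, 5329 and 5558 in AT2 libraries, and 531 and 606 in Club libraries.

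The early steps turn acetyl-CoA into the isoprenoid units from which squalene is made. Pmvk (chr3:89454541-89469013, plus strand, GRCm38), the kinase that makes mevalonate diphosphate, had 1084 and 916 normalised counts in BASC libraries, 1320 and 1518 in AT2 libraries, and 177 and 185 in Club libraries. The 3 populations did not overlap for Pmvk, and the difference between BASC and Club cells was several times the spread between replicates. Pmvk was 5.52-fold higher in BASC than in Club cells (log2 difference 2.45 ± 0.19, SE, n = 2 per group, limma adjusted p = 0.000333) and 7.84-fold higher in AT2 than in Club cells (2.96 ± 0.19, adjusted p = 8.15e-05). Hmgcs1, which makes HMG-CoA, had 2631 and 1709 in BASC libraries, 4147 and 2153 in AT2 libraries, and 897 and 769 in Club libraries. Here the BASC and AT2 libraries overlapped while the Club libraries were lowest, and Hmgcs1 was called in BASC (log2 difference 1.35 ± 0.33, adjusted p = 0.0414) and in AT2 (1.85 ± 0.33, adjusted p = 0.00871) against Club cells. Acat2, the cytosolic acetyl-CoA acetyltransferase, had 508 and 339 in BASC libraries, 443 and 305 in AT2 libraries, and 149 and 123 in Club libraries, with adjusted p = 0.0247 for BASC and 0.0255 for AT2 against Club cells. Shared sequence leaves this gene uncertain. At 95% identity or more, on either strand, 65.6% of the longest Acat2 transcript is matched by transcripts of Acat3 and Tcp1. Reads shared between these genes cannot be assigned from the deposited values.

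Mvd and Idi1 passed the test in AT2 but not in BASC, each against Club cells. No difference between BASC and AT2 is read from this, since limma called neither gene between them (adjusted p = 0.540 and 0.616). The same holds for Fdft1, Abca1 and Scarb1 below (adjusted p = 0.641, 0.550 and 0.650 for BASC against AT2). The decarboxylase gene Mvd had 347 and 99 in BASC libraries, 418 and 335 in AT2 libraries, and 58 and 80 in Club libraries. The BASC libraries for Mvd lay far apart, and the call came in AT2 against Club cells (log2 difference 2.44 ± 0.60, adjusted p = 0.0300) but not in BASC against Club cells (1.43 ± 0.60, adjusted p = 0.194). Idi1, the isomerase of isopentenyl diphosphate, had 339 and 390 in BASC libraries, 522 and 608 in AT2 libraries, and 82 and 212 in Club libraries. The 3 populations did not overlap for Idi1, which was called in AT2 (adjusted p = 0.0175) but not in BASC (adjusted p = 0.0833) against Club cells, and 22.6% of its longest transcript is matched by other genes. Mevalonate kinase, Mvk, had 332 and 183 in BASC libraries, 354 and 321 in AT2 libraries, and 187 and 245 in Club libraries, and passed no test. Fdps, the farnesyl diphosphate synthase, had low values in every population, with 9 and 3 in BASC libraries, 24 and 33 in AT2 libraries, and 8 and 0 in Club libraries. Fdps passed the filter on low values only through its AT2 libraries and was not called. Of its exonic bases, 26.7% are overlapped on the same strand by Gm43738, and 5 other genes match part of its transcript, so its level is uncertain.

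The steps from squalene to lanosterol differed in size. Fdft1, squalene synthase, had 1381 and 822 in BASC libraries, 1428 and 1265 in AT2 libraries, and 605 and 589 in Club libraries. It was 2.26-fold higher in AT2 than in Club cells (log2 difference 1.17 ± 0.25, adjusted p = 0.0188), and 1.85-fold higher by its means in BASC than in Club cells without a call (adjusted p = 0.0825). Fdft1 shares 18.3% of its exonic bases with Ctsb on the other strand, and the strand setting of the counting is not given. Overlap on the other strand also covers 12.1% of Hmgcs1 and 13.2% of Scap. In addition, 33.75% of the longest Fdft1 transcript is matched by Gm6781, by the same search as for Acat2. Reads shared between Fdft1 and Gm6781 cannot be assigned from the deposited values, so the level of Fdft1 is uncertain. Squalene epoxidase, Sqle, had 1530 and 1006 in BASC libraries, 1817 and 1231 in AT2 libraries, and 882 and 761 in Club libraries, and was not called in any comparison (adjusted p between 0.0639 and 0.720 in the pairwise comparisons). Lss, which closes squalene epoxide into lanosterol, had 1440 and 808 in BASC libraries, 1441 and 965 in AT2 libraries, and 452 and 243 in Club libraries. All 4 BASC and AT2 libraries of Lss lay above both Club libraries, and it was higher in BASC (log2 difference 1.70 ± 0.39, adjusted p = 0.0344) and in AT2 (1.83 ± 0.39, adjusted p = 0.0186) than in Club cells.

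Of the 8 genes that carry lanosterol to cholesterol, 5 were higher in BASC and 6 in AT2 than in Club cells. Cyp51, the lanosterol demethylase, had 1561 and 1017 in BASC libraries, 1977 and 1524 in AT2 libraries, and 666 and 450 in Club libraries. Msmo1, the C4-methylsterol oxidase, had 1791 and 1067 in BASC libraries, 2370 and 1938 in AT2 libraries, and 746 and 447 in Club libraries. For both genes every BASC and AT2 library exceeded both Club libraries, with log2 differences between BASC and Club cells of 1.20 ± 0.28 for Cyp51 (adjusted p = 0.0365) and 1.26 ± 0.32 for Msmo1 (adjusted p = 0.0477). The Msmo1 call rests close to the threshold, with adjusted p between 0.00547 and 0.21 over its alternatives. Nsdhl, the sterol dehydrogenase of C4 demethylation, had 539 and 480 in BASC libraries, 892 and 430 in AT2 libraries, and 170 and 96 in Club libraries, and was 3.83-fold higher in BASC than in Club cells (adjusted p = 0.0261). Hsd17b7, the ketoreductase of the same step, had 451 and 349 in BASC libraries, 446 and 288 in AT2 libraries, and 148 and 101 in Club libraries. Dhcr7, which makes cholesterol from 7-dehydrocholesterol, had 397 and 266 in BASC libraries, 460 and 258 in AT2 libraries, and 113 and 99 in Club libraries. Hsd17b7 and Dhcr7 had BASC levels within the AT2 range or close to it, and were called in BASC against Club cells at adjusted p = 0.0251 and 0.0406 and in AT2 against Club cells at 0.0239 and 0.0240. Sc5d, the sterol C5 desaturase, had 794 and 398 in BASC libraries, 1055 and 706 in AT2 libraries, and 387 and 269 in Club libraries, and was called only in AT2 against Club cells (adjusted p = 0.0421), although the difference between that comparison and BASC against Club cells is itself the comparison of BASC with AT2, which was not called (adjusted p = 0.561).

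Ebp and Tm7sf2 were not called in any comparison. Ebp, the sterol isomerase, was the only synthesis gene with its highest values in Club cells, at 194 and 144 in BASC libraries, 221 and 65 in AT2 libraries, and 344 and 256 in Club libraries. The Club libraries lay above all others for Ebp, but the AT2 libraries differed by 3.40-fold and the adjusted p was 0.460 for BASC and 0.184 for AT2 against Club cells. Tm7sf2, a sterol C14 reductase, had 111 and 194 in BASC libraries, 152 and 125 in AT2 libraries, and 56 and 35 in Club libraries, and 12.1% of its exonic bases are overlapped on the same strand by Vps51.

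**Figure D2:**
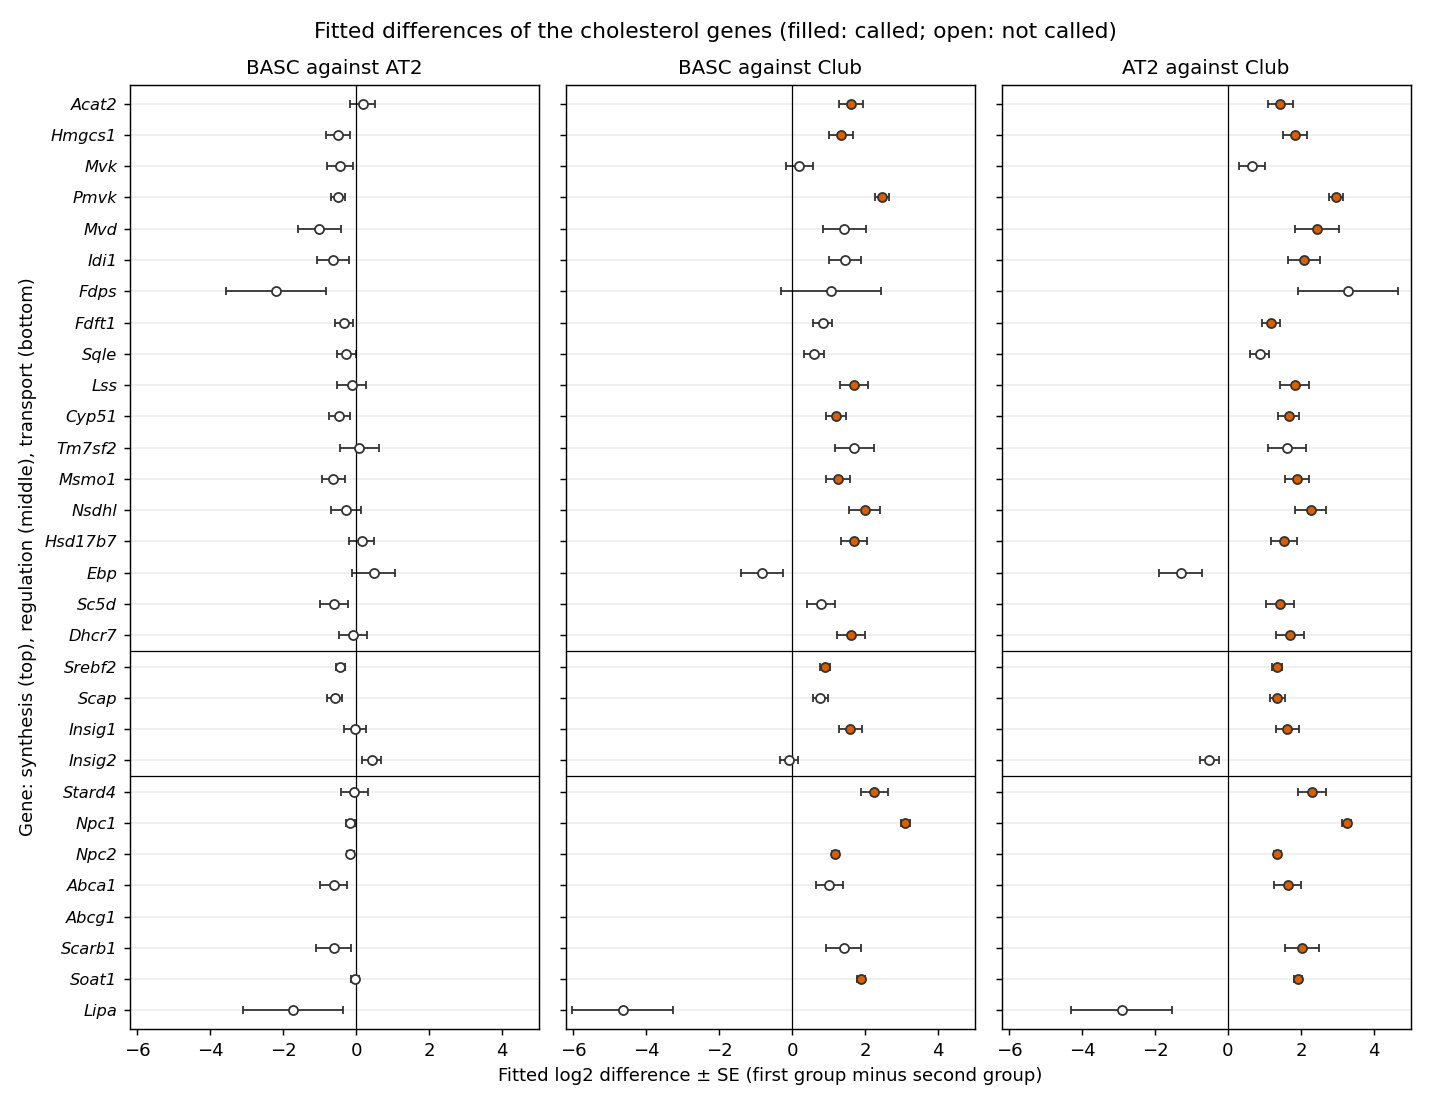
Fitted log2 difference with its SE for each tested gene in BASC minus AT2, BASC minus Club cells and AT2 minus Club cells. Filled points passed the test: 0 of 29 for BASC minus AT2, 15 for BASC minus Club cells and 22 for AT2 minus Club cells. Abcg1 was not tested.

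Of the 4 regulators, Srebf2 and Insig1 were higher in BASC, and Srebf2, Scap and Insig1 in AT2, than in Club cells. Insig2 passed no test. Srebf2 had 4479 and 3856 in BASC libraries, 5630 and 5623 in AT2 libraries, and 2373 and 2071 in Club libraries. The 3 populations were ordered without overlap, with a log2 difference of 0.91 ± 0.13 in BASC (adjusted p = 0.00526) and 1.34 ± 0.13 in AT2 (adjusted p = 0.000545) against Club cells. BASC held 74.1% of the AT2 mean of Srebf2, a difference of -0.44 ± 0.13 that passed an unadjusted p under 0.05 but not the adjustment (adjusted p = 0.208). Scap had 488 and 600 in BASC libraries, 773 and 855 in AT2 libraries, and 306 and 329 in Club libraries. It followed the same order without overlap, was called in AT2 against Club cells (1.35 ± 0.21, adjusted p = 0.00469) and was not called in BASC against Club cells (adjusted p = 0.0589) or BASC against AT2 (adjusted p = 0.291).

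Insig1, a retention factor that is itself a target of SREBP-2, had 3355 and 1988 in BASC libraries, 3100 and 2253 in AT2 libraries, and 1062 and 685 in Club libraries. BASC and AT2 overlapped, with means of 2671.5 in BASC and 2676.5 in AT2, and both were called against Club cells, at 1.60 ± 0.31 in BASC (adjusted p = 0.0192) and 1.63 ± 0.31 in AT2 (adjusted p = 0.0118). Its relative Insig2 had 486 and 344 in BASC libraries, 299 and 308 in AT2 libraries, and 406 and 464 in Club libraries. Insig2 had its lowest values in AT2, with adjusted p = 0.548 for BASC against AT2 and 0.235 for AT2 against Club cells. Per kb of exon, mean levels of Insig1 were 864, 865 and 282 in BASC, AT2 and Club cells, and those of Insig2 were 119, 87.4 and 125, so both genes stood closest in Club cells.

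Per kb of exon, Npc2 had the highest mean level of the 30 genes in each population, with means of 3726 for BASC, 4153 for AT2 and 1635 for Club cells. Npc2 (chr12:84754562-84773152, minus strand, GRCm38) encodes a soluble protein that hands cholesterol out of lysosomes, and it had 20769 and 19750 in BASC libraries, 22988 and 22185 in AT2 libraries, and 8557 and 9228 in Club libraries. Its membrane partner Npc1 had 4886 and 4865 in BASC libraries, 5329 and 5558 in AT2 libraries, and 531 and 606 in Club libraries. For both genes the 3 populations did not overlap, and BASC lay just under AT2. Npc1 was 8.58-fold higher in BASC than in Club cells (log2 difference 3.10 ± 0.12, adjusted p = 1.89e-05) and 9.58-fold higher in AT2 than in Club cells (3.26 ± 0.12, adjusted p = 8.57e-06). Npc2, which acts in the same path, differed less, at 2.28-fold in BASC (1.19 ± 0.09, adjusted p = 0.000356) and 2.54-fold in AT2 (1.35 ± 0.09, adjusted p = 0.000115) against Club cells.

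Soat1 (chr1:156424525-156474331, minus strand, GRCm38), which esterifies cholesterol for storage, had 12899 and 13727 in BASC libraries, 13960 and 13359 in AT2 libraries, and 3384 and 3849 in Club libraries. BASC and AT2 overlapped and both stood well clear of Club cells, at 3.68-fold in BASC (log2 difference 1.88 ± 0.11, adjusted p = 7.76e-05) and 3.78-fold in AT2 (1.92 ± 0.11, adjusted p = 3.88e-05). Stard4, a cytosolic sterol carrier, had 989 and 960 in BASC libraries, 1167 and 874 in AT2 libraries, and 308 and 135 in Club libraries, and was 4.40-fold higher in BASC than in Club cells (2.25 ± 0.38, adjusted p = 0.0106). The cholesterol exporter Abca1 had 453 and 345 in BASC libraries, 756 and 486 in AT2 libraries, and 261 and 144 in Club libraries. Abca1 was called in AT2 (1.64 ± 0.37, adjusted p = 0.0230) but not in BASC (1.02 ± 0.37, adjusted p = 0.139) against Club cells. Scarb1, the lipoprotein receptor SR-BI, had 510 and 182 in BASC libraries, 434 and 505 in AT2 libraries, and 117 and 111 in Club libraries, with 1 BASC library near AT2 and the other near Club cells. It was called in AT2 (2.03 ± 0.47, adjusted p = 0.0256) but not in BASC (adjusted p = 0.114) against Club cells.

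The remaining transport genes were close to the detection limit. Lipa, the lysosomal acid lipase that frees cholesterol from its esters, was listed at 0 in both BASC libraries, at 0 and 10 in AT2 libraries, and at 24 and 24 in Club libraries. It passed the filter mainly through its Club libraries, where it is high, and 1 AT2 library, so its difference is not read as a result. Its bound in BASC, a floor of 3 reads per library for counting error only, lay 7.09-fold under the Club mean. Limma did not call it. The exporter gene Abcg1 had 0 and 1 in BASC libraries, 0 and 3 in AT2 libraries, and 21 and 6 in Club libraries, and was not tested because fewer than 2 libraries reached 10.

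In both comparisons with Club cells, the median differences of synthesis and transport genes lay close to each other as first fitted. In BASC against Club cells the median log2 difference was 1.39 over the 18 synthesis genes, of which 9 were called, and 1.41 over the 7 transport genes tested, of which 4 were called. In AT2 against Club cells the medians were 1.68 with 13 called and 1.92 with 6 called. Leaving out single libraries moved the transport median from 1.15 to 1.84 in BASC and from 1.71 to 2.07 in AT2, against Club cells. The synthesis median moved from 0.97 to 1.65 and from 1.37 to 1.88 in the same fits. In BASC against AT2 the medians were -0.39 for synthesis and -0.16 for transport, both with 0 called. That synthesis median was -0.02 without AT2 replicate 1, -0.11 without BASC replicate 2 and -0.60 without BASC replicate 1, and the transport median was -0.33 with no filter on low values, so no order of the 2 classes is read from them. The medians over all genes tested were -0.10 in both comparisons with Club cells and 0.00 between BASC and AT2. With Lipa set to its bound the transport medians in both BASC comparisons stayed the same. Summed per kb of exon, transport genes stood at 1.53 and 2.19 times the synthesis genes in the BASC libraries, 1.34 and 1.68 times in AT2, and 1.43 and 1.78 times in Club cells. These ratios overlapped among the 3 populations, and Npc2 and Soat1 carried most of the transport sum.

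**Figure D3:**
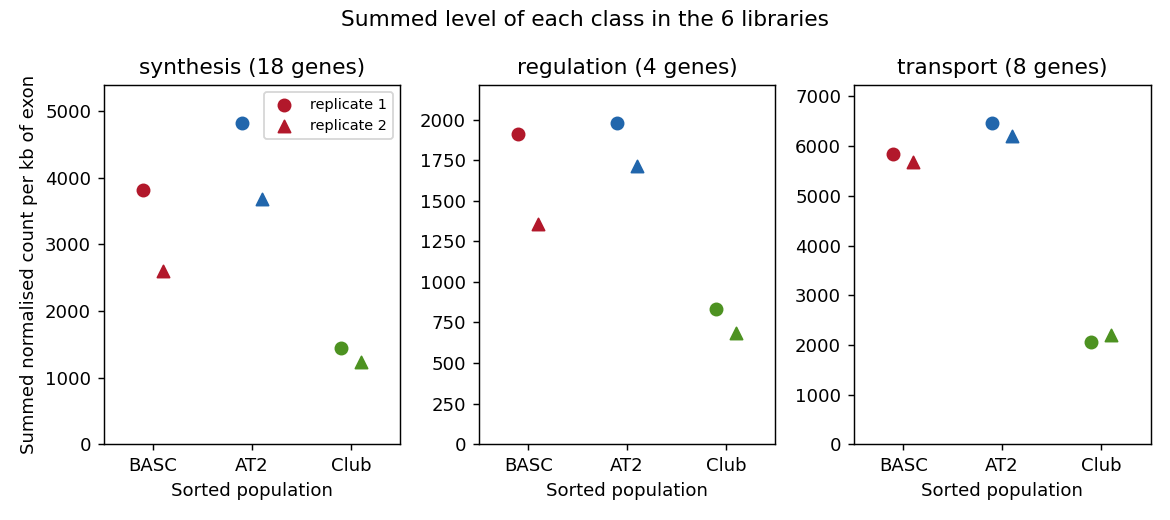
Summed normalised count per kb of exon for the synthesis, regulation and transport genes in each library, with axes from 0 and marker shape for the replicate. For synthesis the sums are 3814 and 2599 in BASC libraries, 4818 and 3681 in AT2 libraries, and 1449 and 1237 in Club libraries, which are lowest in every class.

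By their means, BASC lay between AT2 and Club cells for 25 of the 29 genes tested. The share of all genes in this position was not computed, so the count is not read as particular to the cholesterol genes. Acat2, Tm7sf2 and Hsd17b7 stood above both and Lipa below both, all without a call in BASC against AT2. BASC held 99.8% of the AT2 mean of Insig1, 97.5% of Soat1, 95.5% of Stard4 and 93.4% of Lss, but 59.2% of Mvd, 64.3% of Abca1, 64.5% of Idi1 and 66.3% of Msmo1. The intervals of these differences were wide for most genes. The log2 difference between BASC and AT2 was -0.04 for Soat1 with a 95% interval from -0.29 to 0.21, and -0.03 for Insig1 with an interval from -0.76 to 0.70, so a change of 1.5-fold in Insig1 would not have been detectable.

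Against the midpoint of AT2 and Club cells on the log2 scale, BASC was higher for 4 of 29 genes and lower for 0, where the shares among all genes were 1.29% higher, 0.322% lower and 1.61% in either direction. At an unadjusted p under 0.05 limma found 8 higher and 1 lower, against 7.36% and 7.74% of all genes. The 1 lower was Lipa, which had 0 in both BASC libraries. An even mix of the AT2 and Club values lies above their log2 midpoint whenever these differ. A value above the midpoint therefore does not place BASC above both populations. The called genes were Npc1 (1.47 ± 0.11 above the midpoint, adjusted p = 0.00133), Soat1 (0.92 ± 0.09, adjusted p = 0.00539), Npc2 (0.52 ± 0.08, adjusted p = 0.0301) and Pmvk (0.97 ± 0.17, adjusted p = 0.0388). This count was 0 without either BASC library and 0 without a variance trend, and it was 2 without either AT2 library, where Npc1 and Soat1 remained. Of 16 alternatives, Pmvk lost this call in 9 (adjusted p between 0.0181 and 0.209), Npc2 in 5, and Npc1 and Soat1 in 3 each.

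Synthesis genes varied together between the libraries of a population. The library labelled replicate 1 was higher for 16 of 18 synthesis genes among BASC libraries, 15 among AT2 libraries and 14 among Club libraries. In 12 of the 18 genes (66.7%) it was higher in all 3 populations, a pattern shown by 4 of the 11 regulation and transport genes tested (36.4%) and by 12.5% of all genes tested. The median log2 difference between replicate 1 and replicate 2 of the synthesis genes was 0.61 for BASC, 0.46 for AT2 and 0.35 for Club cells, against 0.00 over all genes tested in each. For the 7 transport genes tested it was 0.04, 0.05 and 0.00. Sc5d, for example, was 2.00-fold higher in BASC replicate 1 than in BASC replicate 2, 1.49-fold in AT2 and 1.44-fold in Club cells, while for Npc1 the ratio was 1.004, 0.959 and 0.876. The labels do not say that a replicate number marks a shared animal, sort or day.

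**Figure D4:**
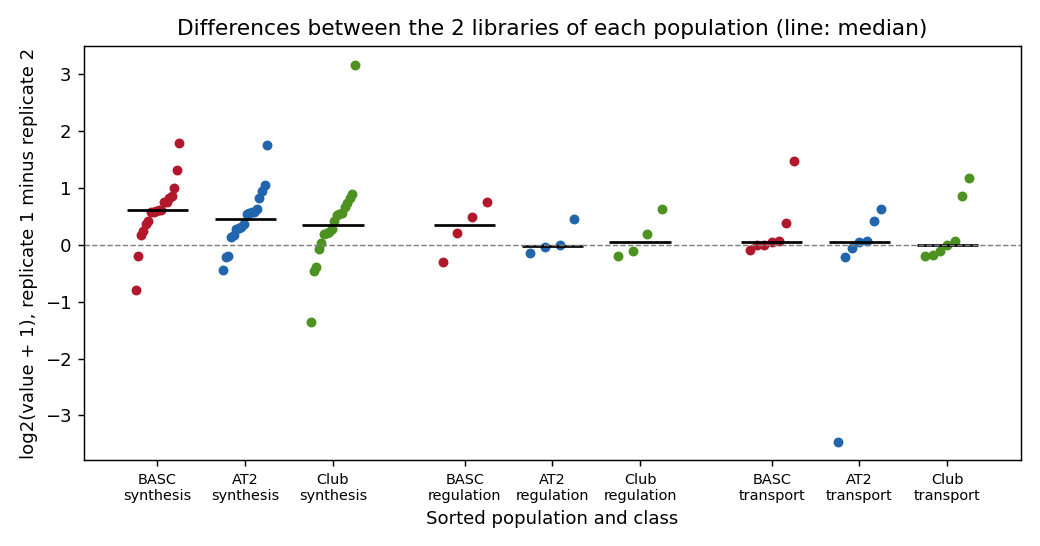
Difference in log2(value + 1) between replicate 1 and replicate 2 of each population for the tested genes of each class, sorted by size, with a black line at the median and a dashed line at 0. Synthesis genes sit mostly above 0 in all 3 populations, with medians of 0.61 for BASC, 0.46 for AT2 and 0.35 for Club cells, while transport medians lie between 0.00 and 0.05.

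Further genes of cholesterol handling are given by list. The shares among all genes to set beside these counts are 5.77% higher and 5.42% lower in BASC, and 8.42% higher and 9.71% lower in AT2, against Club cells, so 1 call in a list of 8 to 13 genes is near the background. Of 11 genes of the isoprenoid branch, which uses the same precursors for dolichol, coenzyme Q and protein prenylation, limma called 0 in every comparison, with 0 at an unadjusted p under 0.05 in BASC or AT2 against Club cells and 1 lower in BASC against AT2. Of 4 further synthesis genes, 1 was higher in BASC and 2 in AT2 than in Club cells. At an unadjusted p under 0.05, limma found 2 of these higher and 1 lower in each of the 2 comparisons. The shares among all genes were 11.3% and 13.3% for BASC, and 13.9% and 16.6% for AT2. Of 12 genes of sterol sensing and control, 1 was higher in BASC than in Club cells, and 2 were higher and 1 lower in AT2 than in Club cells. Srebf1, whose products favour fatty acid genes, had 4941 and 3942 in BASC libraries, 4483 and 3733 in AT2 libraries, and 1464 and 1568 in Club libraries (BASC against Club cells, log2 difference 1.54 ± 0.16, adjusted p = 0.00121). Mylip, a ubiquitin ligase that degrades lipoprotein receptors, had 307 and 87 in AT2 libraries, with 826 and 642 in Club libraries (adjusted p = 0.0356), and Erlin1, an endoplasmic reticulum protein of sterol sensing, had 507 and 757 in AT2 libraries, with 251 and 278 in Club libraries (adjusted p = 0.0241).

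Of 8 lipoprotein receptor genes and their partners, 3 were higher and 1 lower in BASC than in Club cells, and 4 were higher and 1 lower in AT2 than in Club cells. Vldlr, the very low density lipoprotein receptor, had 1024 and 1204 in BASC libraries, 1890 and 1694 in AT2 libraries, and 5 and 42 in Club libraries (adjusted p = 0.00346 for BASC and 0.00134 for AT2 against Club cells). Lrp1, a large scavenging receptor of the same family, ran the other way at 118 and 84 in BASC libraries, 131 and 137 in AT2 libraries, and 1431 and 943 in Club libraries (adjusted p = 0.000864 and 0.000940 for BASC and AT2). No library of BASC or AT2 overlapped a Club library for either receptor. Of 13 tested genes of sterol carriage, esters and export, 2 were higher and 1 lower in BASC than in Club cells, and the counts in AT2 were the same. Nceh1, a hydrolase of cholesterol esters, had 1366 and 1498 in BASC libraries, 1476 and 1422 in AT2 libraries, and 695 and 795 in Club libraries (adjusted p = 0.00933 for BASC). Gramd1b, which carries cholesterol from the plasma membrane, was the gene lower in BASC, at 828 and 910 in BASC libraries, 509 and 511 in AT2 libraries, and 2465 and 2098 in Club libraries (adjusted p = 0.00224 for BASC against Club cells). Of 5 oxysterol enzyme genes only Cyp39a1 could be tested, with 477 and 537 in BASC libraries, 493 and 415 in AT2 libraries, and 963 and 1001 in Club libraries (adjusted p = 0.0220 for BASC against Club cells). Between BASC and AT2, limma called 0 genes of these further lists, with between 0 and 2 genes per list in each direction at an unadjusted p under 0.05, where 7.09% of all genes were higher and 6.09% lower. The counts of higher genes include Soat2, which passed the filter on low values only through its BASC libraries and is not read as a result.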

How the data were processed

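Bulk RNA-seq libraries were made from 100 pg of RNA with the SMARTer Stranded Total RNA Pico kit, per the labels' protocols. Per the submitters' processing notes, FastQC served for read quality, STAR 2.4.0a for alignment to mm10 (GRCm38), and reads were counted with featureCounts 1.4.5-p1 of Subread. Not given in the sources used here are the normalization, the strand setting and the annotation release. In the deposited table each gene has a signal, a normalised count that the authors appear to have scaled with 1 factor per sample and then rounded, as judged from the values themselves. From the regular gaps and repeats among low values, 1 read was worth 1.34 and 0.916 units in BASC libraries, 0.764 and 1.07 in AT2 libraries, and 0.825 and 1.04 in Club libraries. Whole reads could not be recovered in every library, so no count model was run.

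A pseudocount of 1 was added and log2 taken. The filter kept the 17721 genes, 29 of the 30 cholesterol genes among them, that reached 10 in 2 or more samples. A model with 1 mean per group was fitted to all 6 samples (limma 3.58.1, R 4.3.3) with a variance trend, 3 residual and 4.20 prior degrees of freedom. The code was tested on simulated data. Tests were 2-sided, adjusted over all genes by the Benjamini-Hochberg method, and called at an adjusted p under 0.05. Folds are ratios of group means, and log2 differences with SE are those of the fit, so they understate changes of low genes. Exon lengths and overlaps came from GENCODE mouse release 21, and transcript matches from BLAST 2.17.0. The genes and lists were chosen with earlier results of these data known. Called genes and the ends of each class are given per sample, further lists by up to 3 called genes, and some genes of those lists are not reported here by name. Alternatives changed the pseudocount, filter, scaling, variance model, samples fitted, blocking and libraries.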

Additional observations from a re-analysis of the deposited data

How the results depend on the processing

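Directions of all called genes against Club cells and against the midpoint were the same in every alternative tried. Without a variance trend, the genes called higher numbered 3 in BASC against Club cells, 6 in AT2 against Club cells and 0 against the midpoint, against 15, 22 and 4 as first fitted; the cause was not tested. Fitting only the groups compared called 1 gene (Lipa) lower in BASC than in Club cells, and Lss, Cyp51 and Msmo1 lost their call. In that fit Lipa passed the filter only through its Club libraries, where it is high, so its call is not read as a result. Leaving out single libraries gave between 5 and 12 genes higher and between 0 and 1 lower in BASC against Club cells, between 7 and 22 higher and between 0 and 1 lower in AT2 against Club cells, and between 0 and 4 higher against the midpoint, with fewer samples and a lone sample assumed to vary like the other groups. In the same fits the synthesis median ran from -0.60 to -0.0219 for BASC against AT2, from 0.97 to 1.65 when BASC were set against Club cells, from 1.37 to 1.88 in AT2 against Club cells and from 0.089 to 0.68 against the midpoint. The regulation median ran from -0.42 to 0.0076 in BASC against AT2 and from 0.18 to 0.38 against the midpoint. Calls of Pmvk, Npc1 and Soat1 in BASC, and of these with Npc2, Srebf2 and Scap in AT2, against Club cells held in all 17 alternatives. Scaling to the protein coding sum moved the median of all genes in AT2 against Club cells to -0.22 and quantile normalization to 0.00, against -0.10 as first fitted. The labels tie a replicate number to no shared animal or day. Between samples with the same number, across all genes the correlation of their deviations was at most 0.012, and between 0.06 and 0.09 among genes averaging 100 or more, although most synthesis genes were higher in replicate 1 of each population. With a replicate block the genes called higher were 0 for BASC against AT2, 16 for BASC against Club cells, 23 in AT2 against Club cells and 4 against the midpoint, where Pmvk moved to an adjusted p of 0.056 (range over its alternatives 0.0181 to 0.209). Over all genes, calls in BASC against AT2 numbered 112, and 3 without BASC replicate 1, 4 without BASC replicate 2, 176 with log2(value + 10), 196 with robust moderation and 265 with a filter at 50; the last gave 455 against the midpoint, which had 286 as first fitted. Without a trend the calls over all genes were 1183 in BASC and 2028 in AT2 against Club cells, which had 1983 and 3212 as first fitted; leaving out single libraries took them as low as 853 and 1539, and the midpoint count as low as 4. With few reads, as for Fdps, Lipa and Abcg1, depth limits what can be seen.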

Other observations

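Soat2, another enzyme that esterifies cholesterol, was singled out after its values were seen. It had 96 and 72 normalised counts in BASC libraries, 5 and 5 in AT2 libraries, and 8 and 6 in Club libraries. Soat2 passed the filter on low values only through its BASC libraries, where it is high, so no test value is given and its place in the list counts is not read as a result.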
